A study of Mus musculus with 6 samples.

Results

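The 10 genes described here are Pdgfra, Pdgfrb, Acta2, Myh11, Tagln, Des, Foxd1, Tbx18, Itga8 and Dcn. They are taken as markers of the stromal cells of the kidney, which are mesangial cells, pericytes, vascular smooth muscle and fibroblasts. For each gene, the accessible intervals were taken that overlap the stretch from 3 kb upstream of its start to its end in the GENCODE M39 annotation of GRCm39. This gave 88 of the 279569 distinct intervals in the whole list, at 10 of 21757 protein-coding genes, and no interval fell to more than 1 of the genes. The data came from ATAC-seq, in which the Tn5 transposase cuts open chromatin, on nuclei from mouse kidney cortex. The labels give 3 WT and 3 Acly cKO libraries, all from kidney and all carrying the treatment label Control. By the study's methods, Acly cKO mice are Acly fl/fl with Ksp-Cre, and the controls are Acly fl/fl littermates without Cre. Acly encodes ATP citrate lyase, which makes acetyl-CoA from citrate, and the Ksp (Cdh16) promoter drives Cre in tubule epithelium. Stromal cells lie outside the cells in which this Cre is meant to act. Going by its peak names, the deposited peak call pools the libraries, so every value below describes the pool. WT and Acly cKO were not compared, no value carries a replicate error, and the depth is unknown. The labels put the WT libraries in batches 1 and 2 and the Acly cKO libraries in batches 4 and 5, and effects of batch and of genotype cannot be told apart.

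Most kidney stroma descends from embryonic cells that express the forkhead factor Foxd1, and the T-box factor Tbx18 marks progenitors of the perivascular and ureteric mesenchyme. Mesangial cells and pericytes wrap the glomerular and peritubular capillaries, and they are held there by PDGF-B from endothelium, which signals through the receptor PDGFRβ. Fibroblasts carry PDGFRα as well and make matrix such as the proteoglycan decorin. Contractile stromal cells use smooth muscle actin, smooth muscle myosin, transgelin and the intermediate filament desmin. Many contractile genes are switched on by serum response factor (SRF), which binds the CArG box, a run of 6 A or T bases between CC and GG.

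Reference sequences are shown first because the results return to them. They were read from GRCm39 along the strand of the gene, 5′ to 3′. The first set holds CArG boxes, in capitals, that lay inside accessible intervals of the contractile genes and of Pdgfra. For Tagln, the box at position -60 from the start is the one shown.
Acta2, chr19:34231658-34231727, minus strand: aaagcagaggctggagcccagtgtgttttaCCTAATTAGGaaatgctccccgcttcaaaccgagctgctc
Tagln, chr9:45847429-45847498, minus strand: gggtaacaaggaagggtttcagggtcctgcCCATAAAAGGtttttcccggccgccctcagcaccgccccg
Myh11, chr16:14110155-14110224, minus strand: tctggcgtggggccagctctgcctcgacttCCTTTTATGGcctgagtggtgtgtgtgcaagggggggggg
Des, chr1:75319533-75319602, plus strand: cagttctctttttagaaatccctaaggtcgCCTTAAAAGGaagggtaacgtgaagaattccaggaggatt
Pdgfra, chr5:75312367-75312436, plus strand: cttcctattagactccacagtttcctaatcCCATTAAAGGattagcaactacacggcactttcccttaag
The second set holds summits, the points of highest signal within an interval, whose surrounding bases contain the core of the CTCF consensus, CCANNAGNNGGC on either strand, in capitals. CTCF is an insulator protein that occupies many of its sites in most cell types.
Pdgfra, chr5:75316994-75317053, plus strand: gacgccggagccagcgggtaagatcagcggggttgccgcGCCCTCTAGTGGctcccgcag
Acta2, chr19:34221610-34221709, minus strand: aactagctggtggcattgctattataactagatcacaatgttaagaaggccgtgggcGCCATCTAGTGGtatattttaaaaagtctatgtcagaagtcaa
Tbx18, chr9:87590355-87590454, minus strand: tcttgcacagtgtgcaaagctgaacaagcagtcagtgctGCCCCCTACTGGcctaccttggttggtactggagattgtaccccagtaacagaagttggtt
Myh11, chr16:14055264-14055383, minus strand: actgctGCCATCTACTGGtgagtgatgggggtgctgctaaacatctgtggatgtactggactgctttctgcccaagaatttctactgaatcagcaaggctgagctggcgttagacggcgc
Myh11, chr16:14013442-14013501, minus strand: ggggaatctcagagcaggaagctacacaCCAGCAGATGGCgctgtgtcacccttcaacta
Foxd1, chr13:98490729-98490778, plus strand: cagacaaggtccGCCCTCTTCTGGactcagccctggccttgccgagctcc
A last set shows summits with a fold enrichment above 5 whose surrounding bases held neither the CArG box nor the CTCF core. In the Tbx18 sequence, which lies around its coding exon 1, the capitals mark GGGCGG or its reverse complement, the GC box read by Sp factors. The Tagln, Des and Itga8 sequences hold no capitals.
Tbx18, chr9:87612529-87612688, minus strand: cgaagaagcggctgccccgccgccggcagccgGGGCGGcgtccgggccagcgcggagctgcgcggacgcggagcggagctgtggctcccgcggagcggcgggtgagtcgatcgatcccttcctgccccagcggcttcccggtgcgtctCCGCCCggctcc
Tagln, chr9:45848364-45848463, minus strand: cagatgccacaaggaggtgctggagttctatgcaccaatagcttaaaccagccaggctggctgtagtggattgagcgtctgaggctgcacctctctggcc
Des, chr1:75334075-75334174, plus strand: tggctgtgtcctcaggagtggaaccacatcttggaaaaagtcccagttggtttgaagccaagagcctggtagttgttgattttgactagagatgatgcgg
Itga8, chr2:12152869-12152968, minus strand: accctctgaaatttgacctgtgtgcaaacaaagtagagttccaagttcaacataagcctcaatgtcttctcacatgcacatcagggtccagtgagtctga
The bases just upstream of a start are added for Myh11, Itga8 and Dcn. Capitals mark TATAAA or its reverse complement in the first and the second of them, and the reverse complement of CATTCC, the core read by TEAD factors, in the last.
Myh11, chr16:14109237-14109336, minus strand: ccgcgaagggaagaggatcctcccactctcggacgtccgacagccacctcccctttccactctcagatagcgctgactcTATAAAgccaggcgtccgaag
Itga8, chr2:12307215-12307314, minus strand: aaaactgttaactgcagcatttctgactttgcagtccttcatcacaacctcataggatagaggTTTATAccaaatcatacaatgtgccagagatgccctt
Dcn, chr10:97315175-97315274, plus strand: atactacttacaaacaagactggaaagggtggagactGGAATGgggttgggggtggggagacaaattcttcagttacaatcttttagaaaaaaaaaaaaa

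Each interval has a fold enrichment, the signal at its highest summit as a ratio to the background expected by the peak caller, and a -log10 q from the same test. All 10 genes had an interval within 1 kb of their start, while 74.3% of protein-coding genes had one. These starts were open only moderately. The median fold enrichment at the start was 8.35 over the 10 genes and 17.5 over all protein-coding genes, with 0 set where no interval lay. At the gene start Itga8, at 18.7, was the only one above the median gene. At the canonical start, that of the transcript tagged as canonical, the median gene had 19.4, and Pdgfra, at 24.2, was the only one above it. That Pdgfra value belongs to a wide interval whose highest summit lay 4102 bp from the canonical start. The highest summit within 1 kb of that start reached 7.92. A fold enrichment of at least 5 at the start was reached by 8 of the 10 genes, with 64.3% of protein-coding genes doing so, and somewhere in the gene region by 9 of 10, with 74.7%. Taking the strongest interval of each gene, the median was 8.90 over the 10 genes and 24.3 over all. In bulk tissue, fewer cells of a type and less open chromatin per cell cannot be told apart. Which cells give the signal at a gene is not shown either.

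Most of the intervals lay inside the genes, and so does most of the sequence searched, from 3 kb upstream to the gene end. Much of this therefore follows from the rule. The number of intervals per gene ranged from 1 at Dcn to 23 at Pdgfrb, with a median of 7.5, and the median protein-coding gene had 4. Counted per 10 kb, the median was 2.86 over the 10 genes and 1.86 over all. The 88 intervals had a median fold enrichment of 2.52 and a median width of 425.5 bp, close to the 2.55 and 434 bp of the whole list. A fold enrichment of at least 5 was reached by 19 of them (21.6%, Wilson 95% interval 14.3% to 31.3%), beside 24.5% of all intervals. A q under 1e-05 was reached by 45 (51.1%, 40.9% to 61.3%), beside 54.9% of all intervals. These Wilson intervals cover counting error only, and intervals of 1 gene share its locus. By the canonical transcript of each gene, 53 of the 88 summits lay in an intron, 16 of them in intron 1, 14 lay in an exon and 21 upstream. These places were not counted over the whole list. Only 10 summits lay within 1 kb of a canonical start, and the other 78 were farther from it.

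**Figure D1:**
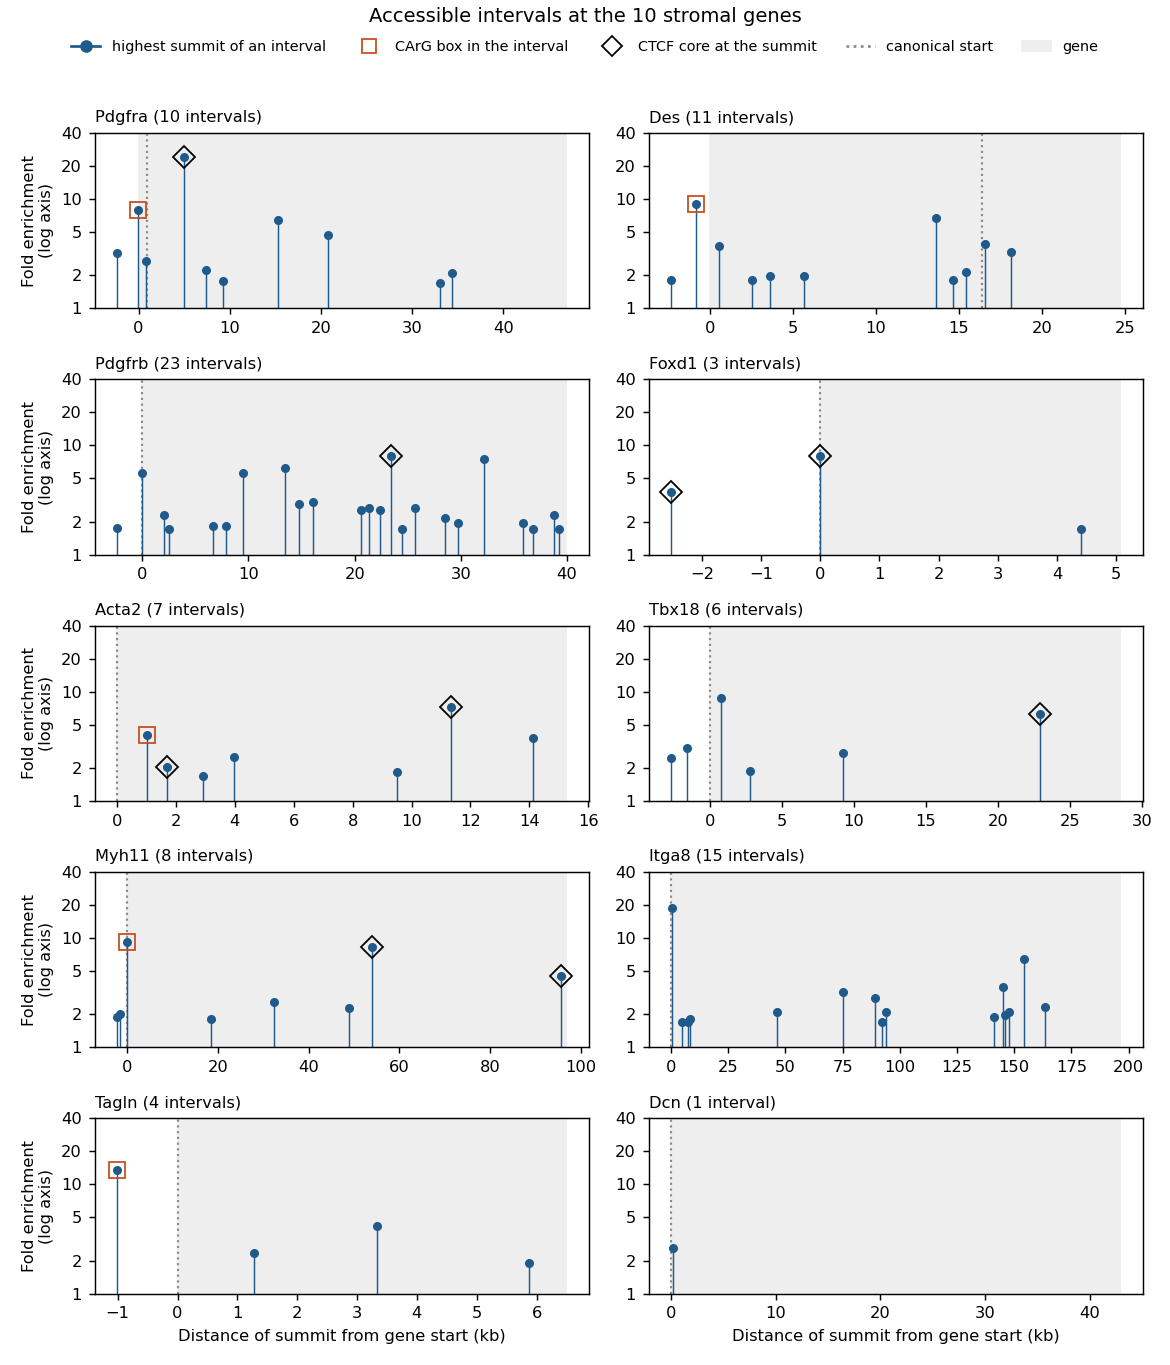
Each panel shows 1 gene, with the distance of each interval's highest summit from the gene start in kb along the gene's own strand on the x axis and its fold enrichment on a log y axis. The grey area is the gene, the dotted line the canonical start, squares mark intervals that contain a CArG box and diamonds summits with a CTCF core. Pdgfra peaks at 24.2 inside the gene, Itga8 at 18.7 at its start, and Dcn has a single interval at 2.62.

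The PDGF receptors differed in layout. Pdgfra (ENSMUSG00000029231.17, chr5:75311994-75358876, plus strand) encodes PDGFRα and had 10 intervals. Its strongest interval, chr5:75313471-75318144, was 4674 bp wide with 11 summits, and its fold enrichment of 24.2 (-log10 q 367) was higher than 95.6% of all intervals. The highest summit lay in intron 1, 5030 bp downstream of the gene start and 470 bp from the nearest annotated Pdgfra transcript start. This interval spans the starts of 8 Pdgfra transcripts, and also those of the opposite-strand Gm42802 and Gm42803, so its signal cannot be given to 1 promoter. At the gene start itself the interval chr5:75310246-75312502 reached 7.92, with its summit 18 bp from the start and a CArG box inside. Another strong interval of 6.42 lay in coding exon 4, and intron 7 held one of 4.71. The canonical start, 928 bp downstream of the gene start, lies near enough to the wide interval to take its value of 24.2. The highest summit of that interval is 4102 bp away, however. The interval that covers the canonical start, chr5:75312699-75313069, had only 2.68. Mir7025 also starts in the region, 25498 bp downstream of the Pdgfra start, and had no interval within 1 kb.

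Pdgfrb (ENSMUSG00000024620.14, chr18:61178212-61218133, plus strand) encodes PDGFRβ, the receptor that defines mesangial cells and pericytes. It carried 23 intervals, or 5.36 per 10 kb, a density above that of 93.6% of protein-coding genes. The highest of them, chr18:61200899-61202303 in intron 9, reached 8.05 (-log10 q 67.2). Next came intron 15 with 7.46, intron 1 with 6.15, and then the start (chr18:61177664-61179290, summit 14 bp from the start) and a second site in intron 1, both with 5.63. The second intron 1 site was the widest at 3920 bp and held 15 summits. Among the 23 values 11 had a q under 1e-05 and the median fold enrichment was 2.29, so Pdgfrb had many intervals of low value, while Pdgfra had its highest value at a single wide one. The lncRNA Gm58834 starts in the upstream part of the region, beside an interval of 1.77.

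Of the contractile genes, Tagln had the highest value and Acta2 the lowest for the strongest interval and at the gene start. At the canonical start Des (3.86) was below Acta2 (4.06), and for summits within 1 kb of the gene start Tagln (4.45) was below Myh11 (9.23) and Des (9.03). Tagln (ENSMUSG00000032085.7, chr9:45840909-45847404, minus strand) encodes transgelin, an actin-binding protein of smooth muscle. Its 4 intervals covered 75.3% of the region. The strongest, chr9:45846645-45851391, was 4747 bp wide, the widest among the 88, with 12 summits, and reached 13.6 (-log10 q 157). It runs over the Tagln start, but its highest summit lay 1010 bp from the start on the upstream side, and the highest summit within 1 kb reached only 4.45. A start of Mir7087 lies inside this interval as well, so its signal cannot be given to 1 promoter. A wide second interval in intron 1 had 4.19 and covers a start of the opposite-strand lncRNA Gm48529. The region also overlaps Pcsk7 and Sidt2, which start outside it.

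Myh11 (ENSMUSG00000018830.11, chr16:14012399-14109236, minus strand) encodes smooth muscle myosin heavy chain, the most specific marker of mature smooth muscle. It had 8 intervals over a gene of 96838 bp, 0.801 per 10 kb. The start interval, chr16:14108596-14110555, was the strongest, with 9.23, a -log10 q of 84.5 and its summit 95 bp from the start. An almost equal interval, chr16:14054848-14055977 in intron 9, reached 8.25 with a single summit, and intron 40 held one of 4.52. The other 5 intervals lay between 1.83 and 2.62.

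Acta2 (ENSMUSG00000035783.11, chr19:34217737-34232990, minus strand) encodes α smooth muscle actin, the usual marker of myofibroblasts. Its start was among the least open of the 10. The interval over the start, chr19:34231591-34233135, reached 4.06, and its summit of highest signal was in intron 1, at position 1004 from the canonical start. The strongest interval, chr19:34220992-34222182, lay in intron 7 with 7.20 and a -log10 q of 55.3. One of 3.80 lay in the 3′ UTR. Des (ENSMUSG00000026208.11, chr1:75320511-75345223, plus strand) encodes desmin, and its annotated gene start lies 16356 bp upstream of the canonical start, where the canonical transcript begins. The strongest of its 11 intervals, chr1:75318999-75320106, had 9.03 and lay 827 bp from the distal gene start. An interval of 6.68 followed, chr1:75333824-75334541, 2017 bp from the nearest annotated Des start. At the canonical start the value was only 3.86, with the summit in coding exon 1. The gene start thus gave Des 9.03 and the canonical start 3.86, and with canonical starts, a choice added after the values were seen, 7 of the 10 genes reached 5, with 66.2% of protein-coding genes doing so.

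**Figure D2:**
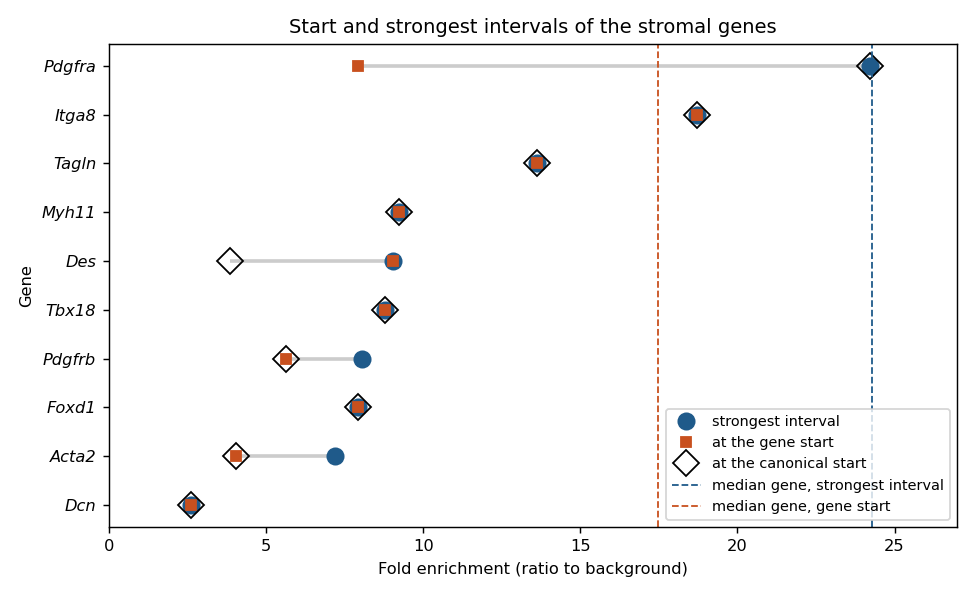
Fold enrichment (x axis, ratio to background) of each of the 10 genes (y axis) for its strongest interval, the interval within 1 kb of the gene start and the interval within 1 kb of the canonical start. Dashed lines are the medians of all protein-coding genes, 24.3 for the strongest interval and 17.5 for the gene start. The symbols separate at Pdgfra, Des, Pdgfrb and Acta2, and coincide at the other genes.

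The transcription factors of stromal development were open at their starts. Foxd1 (ENSMUSG00000078302.6, chr13:98490750-98495813, plus strand) is a gene of a single exon, and its start interval, chr13:98490309-98492732, had 8 summits, a fold enrichment of 7.92 and its highest summit 4 bp from the start in the 5′ UTR. A second interval of 3.73 lay 2520 bp from the start on the upstream side. Tbx18 (ENSMUSG00000032419.10, chr9:87584851-87613338, minus strand) had 6 intervals. The strongest, chr9:87611271-87613683, reached 8.77 with its summit in coding exon 1, 729 bp downstream of the start, and also covers the start of the second annotated Tbx18 transcript, 59 bp from that summit. The opposite-strand D030062O11Rik starts 2000 bp inside Tbx18, within the same interval. Intron 6 held an interval of 6.29, chr9:87590043-87590606, with 1 summit.

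By the value at the gene start, the adhesion receptor and the matrix gene stood at opposite ends. Itga8 (ENSMUSG00000026768.12, chr2:12110900-12307214, minus strand) encodes integrin α8, a mesangial receptor for nephronectin. Its start interval, chr2:12305264-12307397, reached 18.7 (-log10 q 253), with the summit 414 bp downstream of the gene start, in the 5′ UTR and 8 bp from another Itga8 transcript start. The lncRNA E030013I19Rik starts on the other strand inside this interval, 1457 bp from the Itga8 start. Along the rest of the 196315 bp gene the strongest of 14 intervals was 6.48 in intron 25. Gm37701 starts 172661 bp into the gene and had no interval within 1 kb. Dcn (ENSMUSG00000019929.18, chr10:97315275-97358155, plus strand) encodes decorin. Its single interval, chr10:97315303-97315602, was 300 bp wide, reached 2.62 (-log10 q 6.34), and sat 229 bp downstream of the start in the 5′ UTR. The rest of the 42881 bp gene had no interval in the list.

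In the order of the strongest interval the genes ran Pdgfra (24.2), Itga8 (18.7), Tagln (13.6), Myh11 (9.23), Des (9.03), Tbx18 (8.77), Pdgfrb (8.05), Foxd1 (7.92), Acta2 (7.20) and Dcn (2.62). Neighbours from Myh11 to Acta2 lie close together, and without replicate values it could not be said which of them differ.

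Further genes of the same cells were taken from lists of markers. Of 10 further smooth muscle genes, 8 had a fold enrichment of at least 5 at the start and the median was 8.51. At canonical starts 7 of them reached 5 and the median was 7.46. For this and the next lists, the share over all protein-coding genes was 64.3% and the median 17.5. At canonical starts these were 66.2% and 19.4. Smtn, encoding smoothelin, reached 48.1 and Mylk, the myosin light chain kinase, 42.4, while Myocd, the SRF coactivator of smooth muscle, had 3.99 and Actg2, the enteric smooth muscle actin, had no interval at all. For Mylk the value fell to 4.39 at the canonical start. Among 10 pericyte and mesangial genes 6 reached 5, with a median of 9.72, or 10.15 at canonical starts. Gata3, a factor of mesangial cells that the collecting duct also uses, had 41.4 and the angiopoietin gene Angpt1 23.2, whereas the protease inhibitor gene Serpine2 had 2.36 (8.77 at its canonical start, with which 7 of the 10 reached 5) and Ren1, the renin gene, had no interval within 1 kb of its start. In 10 fibroblast genes 6 reached 5, with a median of 6.74. At canonical starts 5 of them did so, with a median of 4.55. Nt5e, encoding CD73, had 50.5 and Mfap5, a microfibril gene, 27.6, and Mfap5 had 2.75 at its canonical start. The pool does not show which cells give these values. Lum, encoding the decorin relative lumican, had 2.36 and Postn, encoding periostin, had no interval within 1 kb of its start. Elsewhere in their regions, Postn had 3 intervals, the strongest 18.1, and Ren1 had 6, the strongest 8.51.

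The ligands of the PDGF receptors were more open than the receptors. All 4 had a start above that of the median gene. Pdgfc had 35.7, Pdgfd 34.8, Pdgfa 29.9 and Pdgfb 28.3, beside 7.92 at the gene start of Pdgfra and 5.63 at that of Pdgfrb. With the wide interval near the canonical start of Pdgfra, 24.2, the gap to Pdgfb was smaller. Its highest summit lay 4102 bp from that start, and the highest summit within 1 kb reached 7.92. The size of these gaps against replicate error is unknown.

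Markers of other cells in the cortex place the 10 genes. Of 10 genes of the proximal tubule, the most common segment of the cortex, 9 had 5 or more, and the median was 11.8. They ran from 35.1 at the water channel gene Aqp1 to 1.96 at Hnf4a. Over all protein-coding genes 64.3% reached 5 and the median was 17.5, so this list alone cannot check the kidney label. Hnf4a had 25.7 at its canonical start. Podocyte genes had a median of 12.5, from Magi2 with 48.4 to Ptpro with 2.55. Endothelial genes had 4.35, from Flt1 with 9.76 to Pecam1 with 2.49, and 4 of 10 reached 5. Immune genes had a median of 0.949, with 5 of 10 without an interval at the start and Cd68 highest with 31.2. Genes of other organs had a median of 0, with 6 of 10 without one and Gfap highest with 8.05. At canonical starts the immune median was 2.19 with 7 of 10 genes having an interval, and the median of the other-organ genes was 0.982 with 0 of 10 at 5 or more and Gfap at 1.96. By the medians at the gene start the 10 stromal genes lay below the podocyte and proximal tubule lists and above the endothelial, immune and other-organ lists. By the median of the strongest interval the order against endothelium turned, with 8.90 for the 10 genes and 11.7 for the endothelial ones. The lists differ in gene length and promoter type, and no test was run between them.

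**Figure D3:**
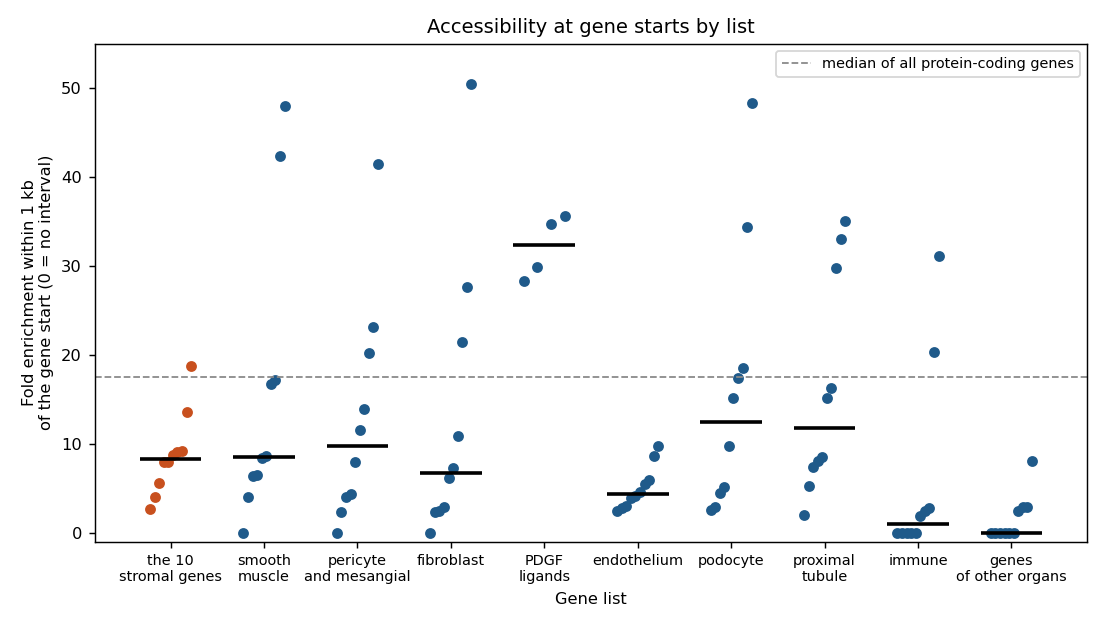
Fold enrichment of the interval within 1 kb of the gene start (y axis, 0 where no interval lay) for the genes of each list (x axis). Each point is a gene and each bar a median, 8.35 for the 10 stromal genes, 32.3 for the 4 PDGF ligands and 0 for genes of other organs, and the dashed line is the median of all protein-coding genes, 17.5.

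Promoters rich in CpG are open in most cell types. The CpG content of the members' promoters was therefore set beside their values. A promoter is taken here as 250 bases before to 50 after the canonical start, and the CpG observed to expected ratio compares the CpG count with that given by its C and G content. Only Tbx18, with 0.683, reached 0.6, and the ratio was 0 at Dcn. Over all genes, 94.6% of promoters at or above 0.6 had a fold enrichment of at least 5 at the canonical start (median 38.5), and 44.5% of those under it (median 3.14). Of the 9 members under 0.6, 6 reached 5 and their median was 7.92. Against the 19.4 of the median gene, Pdgfra was above, Itga8 just below and the other 8 lower. The Pdgfra value is that of its wide interval, and its highest summit within 1 kb of the canonical start reached 7.92. Apart from Dcn, the members under 0.6 were above the median of CpG-poor promoters, Des and Acta2 by the least. Tbx18, the CpG-rich one, had 8.77 and stood below the median of its class.

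**Figure D4:**
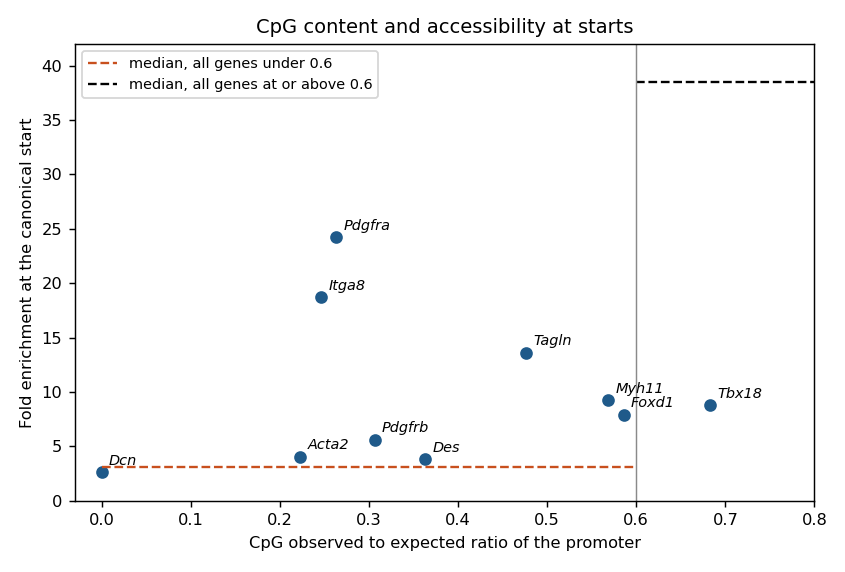
CpG observed to expected ratio of each promoter (x axis) and fold enrichment at the canonical start (y axis) for the 10 genes. Dashed lines are medians over all protein-coding genes on each side of 0.6, which are 3.14 and 38.5. Of the genes on the left side, Pdgfra and Itga8 are highest and Dcn is the only one below the line. The Pdgfra value is that of an interval whose highest summit lay 4102 bp from the canonical start.

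The CArG box was looked for on both strands as an exact match. In the 200 bases around highest summits it occurred at 0 of 88 intervals of the 10 genes and in 0.886% of all windows. A count of 0 allows a share of up to 3.41%, taken as 3 counts over 88, by counting error alone. Intervals of 1 gene share its locus. In promoters it occurred at 1 of the 10, Tagln, and in 1.54% of all promoters. When whole intervals were searched instead, a choice made after those results, 5 of 88 intervals (5.68%) held 6 boxes, and 4.02% of all intervals held one. Per 10 kb of accessible sequence this came to 0.827 boxes for the 10 genes and 0.483 for the whole list. Each of the 4 contractile genes had exactly 1 interval with a box, and the remaining one was the start interval of Pdgfra.

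In Tagln the strongest interval held boxes on either side of the start, CCATAAAAGG at position -60 and CCAAATATGG at position 63. In Acta2 the box CCTAATTAGG lay in the start interval, at position 1297 from the canonical start inside intron 1 and at -63 from another annotated Acta2 transcript start. The Myh11 box, CCTTTTATGG, lay at position -954 in the start interval, and the Des box, CCTTAAAAGG, at -943 from the distal gene start in the strongest interval. The Pdgfra box was CCATTAAAGG. All 6 boxes sat away from the highest summit of their interval, between 116 bp at Des and 1073 bp at Tagln. The boxes were thus in accessible sequence, and the point of highest signal was elsewhere. These intervals hold further summits, and the distance to those was not measured. The regions of the 10 genes hold further boxes outside intervals. Itga8 has 8 boxes, none of them in an interval, Myh11 6 with 1 in an interval, and Tbx18 4 with none.

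The remaining motifs were counted in the same windows, with no test of any difference from the whole list. Around the 88 summits, TATAAA was found in 7.95%, GGGCGG in 7.95%, CATTCC in 7.95% and TGANTCA, the AP-1 site, in 7.95%, which is 7 intervals each. In all summit windows the shares were 6.81%, 8.15%, 13.9% and 12.4%. At the 19 intervals with a fold enrichment of at least 5, CATTCC was found at 0, which allows up to 15.8% (3 counts over 19). TGANTCA was found at 2 of them, the strongest Des interval and intron 9 of Myh11. GGGCGG was found at 3 of them, the strongest intervals of Pdgfra, Foxd1 and Tbx18. In the whole list, intervals that reached 5 had shares of 15.4% for CATTCC, 16.8% for TGANTCA and 18.4% for GGGCGG. In the promoters, TATAAA was found at 2 of the 10 genes and in 13.2% of all promoters, in Myh11 at position -21 to -16 and at 4 places in Itga8, the nearest at -37 to -32. GGGCGG was found at 3 of the 10 and in 42.5% of all, with 3 copies in Tagln, 2 in Des and 1 in Foxd1. CATTCC was found at 3 of the 10, Acta2, Des and Dcn, and in 14.0% of all. TGANTCA was found at 1, Pdgfra, and in 7.15% of all. A match describes letters only, and the absence of one says nothing of the factor.

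Reading the strongest summits showed a CTCF-type sequence in several of them, so its core, CCANNAGNNGGC, was added to the search after the sequences had been seen. It occurred around 6 of the 19 summits with a fold enrichment of at least 5 (31.6%), and around 7.96% of the 68570 such summits in the whole list. Because 3 of the 6, those of Pdgfra intron 1, Acta2 intron 7 and Tbx18 intron 6, prompted the search, the share is a description and carries no test. The other 3 were the start of Foxd1, intron 9 of Myh11 and intron 9 of Pdgfrb. The core lay 15 bp or less from the summit at Pdgfra, Pdgfrb, Tbx18, Acta2 and Foxd1, and 48 bp from it in Myh11 intron 9. Among the summits away from any annotated start by over 1 kb, 4 of 11 strong intervals of the 10 genes held it, and 9.32% of such intervals in the whole list. Over all 88 intervals it was found at 9 (10.2%, beside 4.23%). The other 3 were in intron 40 of Myh11 (4.52), upstream of Foxd1 (3.73) and in intron 1 of Acta2 (2.03). The highest summit of the strongest interval thus had a CTCF core within these 200 bases at Pdgfra, Pdgfrb, Acta2 and Foxd1, and at Tbx18 and Myh11 the strongest interval away from the start had one. At Tagln, Des, Itga8 and Dcn no summit window held it. Whether CTCF was bound was not measured here.

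**Figure D5:**
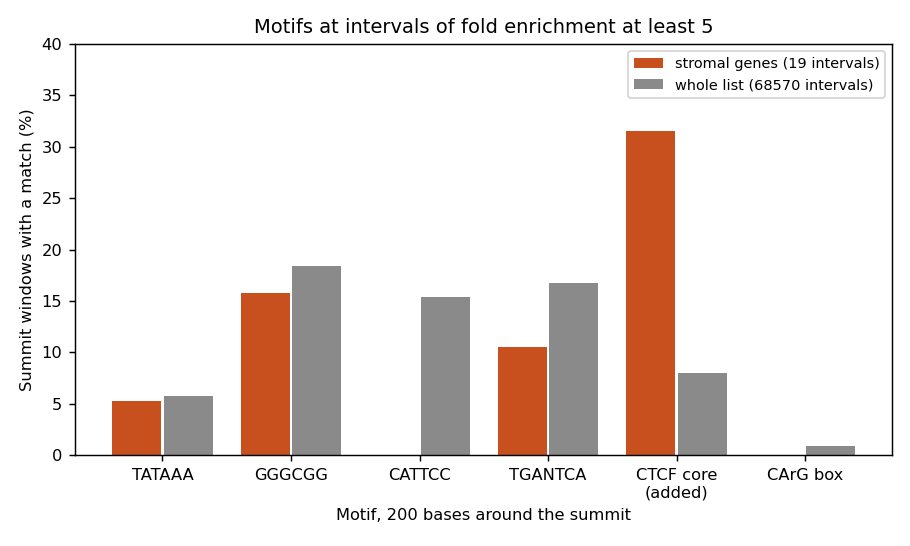
Share of summit windows of 200 bases that hold each motif (y axis, %), for the 19 intervals of the 10 genes and the 68570 intervals of the whole list that reached 5. The CTCF core, added after sequences had been read, stands at 31.6% beside 7.96%, while CATTCC and the CArG box are at 0 for the 10 genes.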

How the data were processed

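ATAC-seq libraries from mouse kidney were grouped by genotype from their labels. By the study's methods, the authors used fastp for trimming, Bowtie2 2.3.4.3 for alignment to mm39 and MACS3 3.0.0 for peaks at a q of 0.05, on unique reads without duplicates. Peaks in the blacklist or off the standard chromosomes were dropped with bedtools 2.29.1. Tool versions are those of the submitters' processing notes. The deposited list gives each summit's fold enrichment, a linear ratio to the expected background, and its -log10 q as the authors' caller wrote it. A last column gives each summit's offset within its interval. The authors' unfiltered list of summits holds the same -log10 q, and all 227 of its summits in the regions of the 10 genes were kept in the filtered list. Peaks were called on the pool, and the files do not name its libraries. The methods mention further WT libraries, and whether the pool includes them is not given in the sources used here.

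The 749750 summits were grouped by position into 279569 intervals, and an interval took both values from the summit with the highest -log10 q. Genes, exons and starts came from GENCODE M39. A gene start is the end of the gene record on its 5′ side, and the canonical start is that of the transcript tagged as canonical. Motifs were matched exactly on both strands of GRCm39. No test was run, since the list holds 1 value per interval. The members and gene lists were chosen with earlier results of these data known. Named were all 10 members with their strongest and start intervals and up to 4 of a fold enrichment of at least 5, the 2 highest and 2 lowest genes at the start in each other stromal list, all PDGF ligands, the highest and lowest gene of each comparison list, and genes that start in a member's region. Intervals below this rule are named where they complete a gene's account, and were chosen after their values were seen. Alternatives were a q under 1e-05, a fold enrichment of at least 5, other regions and other starts. The scripts recovered 1204 of 1204 cases of simulated data. Python 3.11.15, pandas 2.3.3, numpy 2.4.6, pysam 0.24.0, statsmodels 0.14.6 and matplotlib 3.10.9 were used.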

Additional observations from a re-analysis of the deposited data

How the results depend on the processing

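The 88 intervals at the 10 genes became 45 with a q below 1e-05 and 19 when 5 was the least fold enrichment kept. Their number was 121 with 10 kb on either side of each gene and 79 with the gene body only, and it did not move when the highest summit had to lie in the region. The number of genes with an interval at the start was 10 under each alternative but the fold enrichment of at least 5, which gave 8. The median of the strongest interval, 8.90, was 10.6 with 10 kb on either side and otherwise unmoved. For single genes, 19 of 50 interval counts, 2 of 30 strongest values and 4 of 30 start values moved by over 1.5 times. The strongest values that moved were those of Pdgfrb (20.3 with 10 kb on either side) and Dcn (4.39). The start of the immune gene Csf1r, downstream of Pdgfrb, also had 20.3, and whether this is the same interval was not tested. The start values that moved were those of Pdgfra (24.2 at any annotated or the canonical start), Tagln (4.45 for summits within 1 kb) and Des (3.86 at the canonical start). The cause was not tested. No paired analysis was possible because no column of the list belongs to a library, and replicates could not be left out in turn. Depth is unknown, so an interval missing from the list may lie below its threshold.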
